A study of Mus musculus with 33 samples.

Results

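The nuclear genes of the respiratory chain were followed in lymphoid tissue of mice given nicotinamide (NAM, a form of vitamin B3) in the drinking water. Members were the table rows whose symbol matched the naming patterns of complex I (Nduf a, b, c, s and v series), complex II (Sdha to Sdhd), complex III (Uqcr), complex IV (Cox4 to Cox8) and complex V (Atp5). Of 56414 rows, 84 matched, with 37 in complex I, 4 in complex II, 8 in complex III, 18 in complex IV and 17 in complex V. Complexes were assigned from the names alone, so that Ndufa4, now placed in complex IV, is counted in complex I. A mean of at least 10 normalised read counts was reached by 82 members in the libraries labelled spleen and by 81 in those labelled lymph node. Cox7b2 and Cox8c had no read in any library, and Cox8b averaged 2.20 in the libraries labelled lymph node, so these members were not tested there.

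The mice were C57Bl/6 without tumours, and the study's methods give females of 6 to 15 weeks for its mice as a whole. They drank plain water (untreated) or water with 0.5% NAM for 1, 3 or 14 days. The libraries labelled spleen held 5 per group, and those labelled lymph node held 3 without NAM, 2 after 1 day and 4 after each of 3 and 14 days. The labels do not say whether an animal gave one or both organs, or whether replicates were separate animals, so p-values measure the spread between these libraries.

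Complexes I to IV pass electrons from NADH and succinate to oxygen, complexes I, III and IV pump protons out of the mitochondrial matrix, and complex V (ATP synthase) uses the returning protons to make ATP. Most subunits are encoded in the nucleus, and a small core of complexes I, III, IV and V is encoded by the mitochondrial genome. NAM is a precursor of NAD, the cofactor whose reduced form complex I oxidises. Brown fat, heart and muscle are known for high levels of these genes, and complex IV has tissue-restricted isoforms that replace the common subunit there.

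Defining markers went against the tissue labels. Glycam1, a mucin of lymph node venules, had a median of 137789 normalised read counts in the libraries labelled spleen and 8.82 in those labelled lymph node. Spic, a factor of splenic macrophages, had medians of 994 and 9043. Tissues are therefore named only as labelled. Adipoq, the adipocyte hormone used as a check on fat content, had 3148 to 43022 normalised read counts in the first set and 6.63 to 71.3 in the second. Depth ran from 18325061 to 54830743 reads, and in bulk tissue fewer cells of a type and less RNA per cell cannot be told apart.

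Regulatory sequence was available from RefSeq (GRCm38.p6) for 66 of the 84 members, as the 250 bases before the start of the gene. Motifs were searched on both strands as fixed letters: GCATGCGC for NRF1 and CCGGAAG for the ETS family (both families are known regulators of respiratory genes), TCAAGGTCA for ERR, AAGATGGC for YY1, CCAAT and TATAAA. NRF1 letters stood in 8 member promoters, 12.1% against 2.32% of the 27025 promoters of that length. ETS letters stood in 11, 16.7% against 7.05% of all. ERR letters stood in 1, 1.52% against 0.366%. YY1 letters stood in 0, against 1.59% of all. CCAAT stood in 29, 43.9% against 34.5%, and TATAAA in 6, 9.09% against 13.0%. These promoters are printed 5′ to 3′ on the strand of the gene because they belong to the members that the results turn on, namely the 3 called members with the largest rises at 1 day under the spleen label and the Cox6b pair of the lymph node label. Capitals mark matches to these letters on either strand.
Ndufc1 (complex I), chr3:51408956-51409205, minus strand: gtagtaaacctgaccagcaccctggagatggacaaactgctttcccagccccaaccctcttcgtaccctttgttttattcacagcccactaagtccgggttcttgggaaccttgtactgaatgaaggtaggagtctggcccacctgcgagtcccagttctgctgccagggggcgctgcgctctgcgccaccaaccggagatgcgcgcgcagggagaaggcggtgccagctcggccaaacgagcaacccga
Atp5l (complex V), chr9:44920743-44920992, minus strand: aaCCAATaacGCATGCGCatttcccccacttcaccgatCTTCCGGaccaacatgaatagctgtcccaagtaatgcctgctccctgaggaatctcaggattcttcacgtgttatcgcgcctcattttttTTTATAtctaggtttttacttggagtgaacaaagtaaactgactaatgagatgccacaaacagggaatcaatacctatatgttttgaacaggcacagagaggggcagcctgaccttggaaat
Atp5e (complex V), chr2:174464102-174464351, minus strand: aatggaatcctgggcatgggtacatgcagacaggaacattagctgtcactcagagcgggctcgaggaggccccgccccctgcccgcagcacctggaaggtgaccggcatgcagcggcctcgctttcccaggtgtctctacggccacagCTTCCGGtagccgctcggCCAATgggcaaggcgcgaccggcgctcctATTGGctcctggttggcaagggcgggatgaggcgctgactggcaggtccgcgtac
Cox6b2 (complex IV), chr7:4753095-4753344, minus strand: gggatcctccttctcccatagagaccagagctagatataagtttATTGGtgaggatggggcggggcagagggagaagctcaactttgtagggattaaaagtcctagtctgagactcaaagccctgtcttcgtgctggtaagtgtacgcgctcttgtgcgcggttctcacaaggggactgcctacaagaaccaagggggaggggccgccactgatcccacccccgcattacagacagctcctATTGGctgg
Cox6b1 (complex IV), chr7:30626115-30626364, minus strand: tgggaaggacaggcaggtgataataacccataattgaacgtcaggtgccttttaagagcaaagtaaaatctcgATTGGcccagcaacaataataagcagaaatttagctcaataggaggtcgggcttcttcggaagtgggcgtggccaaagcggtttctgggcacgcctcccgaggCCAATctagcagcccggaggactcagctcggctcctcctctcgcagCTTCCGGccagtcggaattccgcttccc
The Atp5l promoter held NRF1, ETS, CCAAT and TATAAA letters, the Atp5e promoter ETS and CCAAT letters, and the Ndufc1 promoter held none of the 6 motifs. Cox6b1 had ETS and CCAAT letters where Cox6b2 had CCAAT alone. Of the 35 members with a promoter that were higher at 1 day under the spleen label, 3 held NRF1 and 6 held ETS letters, and of the 31 others 5 held each. CCAAT stood in 11 of the 35 and 18 of the 31, and TATAAA in 4 and 2. The 31 include Cox7b2, which was not tested for a change, and the splits were not tested. A match is a run of letters and not a measured site.

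In untreated libraries, levels per kilobase of exon differed widely within a complex. The lengths cover every annotated exon of a gene (GENCODE vM21). The study's methods describe counting on constitutive regions for its tumour libraries, and the same may hold here, so these levels are approximate. Complex IV held the highest member under both labels, Cox8a, with 16121 ± 1088 (SD, n = 5) normalised read counts per kilobase under the spleen label and 19668 ± 1212 (SD, n = 3) under the lymph node label. Cox7a2l followed under both labels at 11172 ± 1584 (SD, n = 5) and 14264 ± 591 (SD, n = 3). The difference between Cox7a2l and the member next below it under the spleen label, Cox6a1 at 10942 ± 818 (SD, n = 5), was smaller than either spread. Tissue-restricted isoforms stood at the other end: Ndufa4l2 at 29.3 ± 3.76, Cox6b2 at 46.8 ± 9.42 and Cox7a1 at 83.9 ± 49.1 (SD, n = 5 each) were the 3 lowest of the 82 members under the spleen label. By complex, the median level per kilobase was lowest in complex I (1341 in the labelled spleen, 2025 in the labelled lymph node) and highest in complex III (2747 and 3624). The 2 sets of libraries may have been scaled separately, so levels were not tested across labels.

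After 1 day of NAM, respiratory chain genes rose in every complex under the spleen label. Of 82 members, 43 were higher than in untreated libraries and 1 was lower, where 8.56% of all 18243 genes were called higher and 8.05% lower, 16.6% in all (limma on log2(normalised count + 1), Benjamini-Hochberg adjusted p under 0.05, two-sided). The median member differed by 0.36 on the log2 scale, a 1.28-fold higher level, and the median of all genes by 0.01. The counts of members that changed were 21 of 37 in complex I, 2 of 4 in complex II, 5 of 8 in complex III, 7 of 16 in complex IV and 9 of 17 in complex V. Median log2 differences were 0.40 for complexes I and II, 0.35 for complex III, 0.28 for complex IV and 0.33 for complex V. In 37 members all 5 libraries at 1 day lay above all 5 untreated ones and in 0 members below, where the groups did not overlap for 11.9% of all genes, 6.42% above and 5.47% below.

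**Figure D1:**
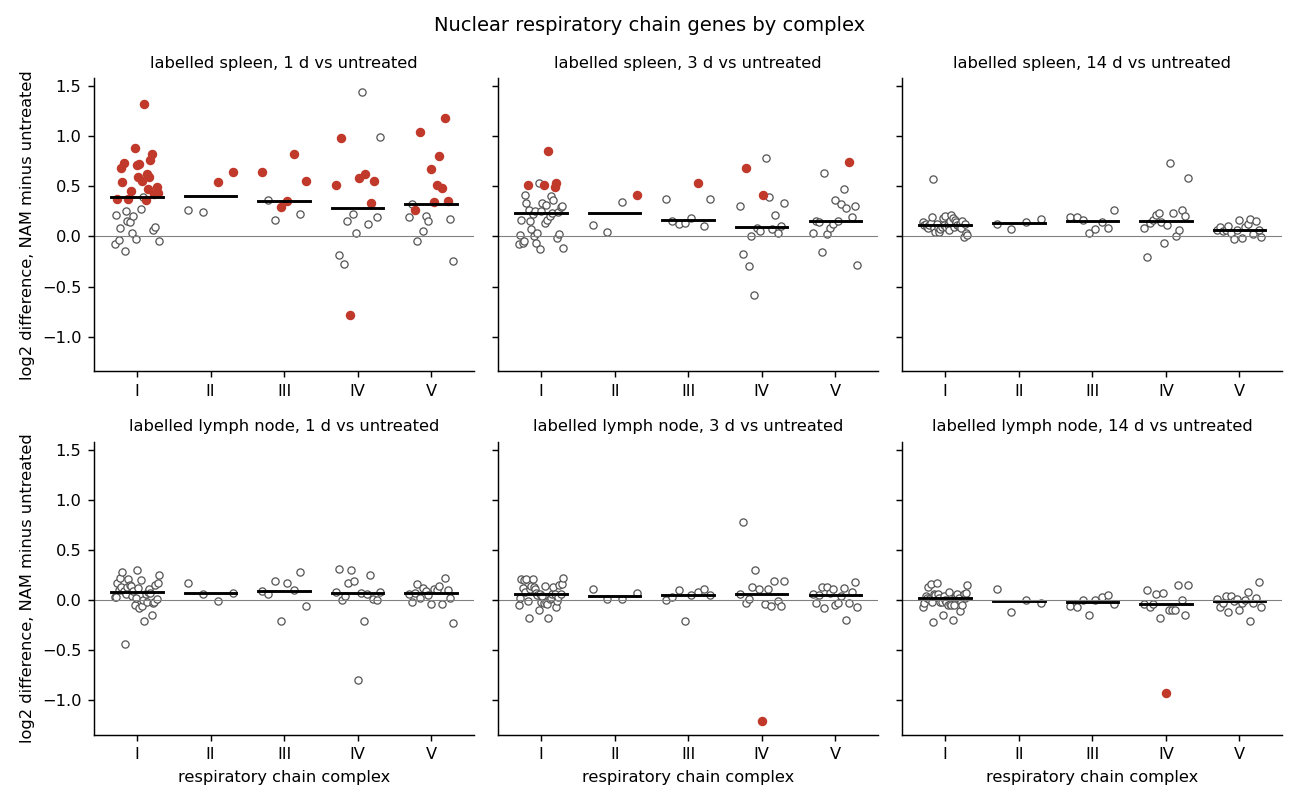
Log2 difference (NAM minus untreated, y axis) of each tested member by respiratory chain complex (x axis), for the labelled spleen (top) and labelled lymph node (bottom) at 1, 3 and 14 days. Each point is a member, filled red where limma's adjusted p was under 0.05 and open otherwise, and bars are medians; red points number 44, 10 and 0 in the top row and 0, 1 and 1 in the bottom row.

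In complex I, Ndufc1, a small accessory subunit of the membrane arm (chr3:51404677-51408955, mm10), changed most. Its normalised read counts were 488, 557, 583, 511 and 526 in untreated libraries and 1091, 1957, 1151, 1344 and 1263 at 1 day. The groups did not overlap, and the mean went from 533 ± 37.4 to 1362 ± 347 (SD, n = 5 each), a log2 difference of 1.32 ± 0.19 (SE, adjusted p = 0.00038). Ndufb2, another accessory subunit, rose by 0.88 (adjusted p = 0.0015), with 709.9 to 864 normalised read counts untreated and 1092 to 2167 at 1 day. Ndufs5 rose by 0.82 and Ndufs4, whose loss causes Leigh-like disease in mice, by 0.76, and every library of both at 1 day exceeded every untreated one. Among the core subunits of the arm that holds the flavin and the iron-sulphur clusters, Ndufs1 differed by 0.63, Ndufs3 by 0.59, Ndufv1 by 0.50, Ndufv2 by 0.43 and Ndufs7 by 0.42, all called, while Ndufs8 differed by 0.09 (adjusted p = 0.46). Ndufa13, one of the most abundant members of the complex, differed by 0.08 (adjusted p = 0.56). Ndufa4, counted here by its name, rose by 0.73 (adjusted p = 0.0020), whereas its paralogue Ndufa4l2 differed by -0.14 (adjusted p = 0.77).

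In complex II the membrane subunits were called and the catalytic subunits were not. Sdhd, a membrane anchor that binds ubiquinone (chr9:50596338-50603849), had 3688, 4243, 4522, 4374 and 3909 normalised read counts in untreated libraries and 5694, 8429.7, 6149, 7137 and 5274 at 1 day. That is 4147 ± 342 against 6537 ± 1265 (SD, n = 5 each) without overlap, a log2 difference of 0.64 ± 0.12 (SE, adjusted p = 0.0015). The other anchor, Sdhc, rose by 0.54 (adjusted p = 0.0035). The flavoprotein Sdha and the iron-sulphur subunit Sdhb differed by 0.26 and 0.25 (adjusted p = 0.14 and 0.16), and their groups overlapped. The difference between the pairs was not tested.

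In complex III, Uqcrfs1, the Rieske iron-sulphur protein (chr13:30540312-30545327), had 3451, 4043, 4109, 4234 and 3733 normalised read counts in untreated libraries. At 1 day it had 6124, 9603, 5964, 7232 and 6261, each above every untreated value. The log2 difference was 0.83 ± 0.13 (SE, adjusted p = 0.00071). The small subunits Uqcr10 and Uqcrq rose by 0.64 and 0.56, and the core proteins Uqcrc2 and Uqcrc1 by 0.35 and 0.30. Uqcrh, the acidic hinge protein and the most abundant member of the complex per kilobase, differed by 0.22 (adjusted p = 0.085).

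In complex IV, the nuclear subunit Cox5a of cytochrome c oxidase (chr9:57521232-57532424) had 2524, 2650.2, 3029.8, 2582 and 2232 normalised read counts in untreated libraries. At 1 day it had 4519, 6448, 4883, 5246 and 4730.4, a log2 difference of 0.98 ± 0.15 (SE, adjusted p = 0.00061) without overlap. Its partner in the name, the zinc-binding Cox5b, had 2726 to 5010.3 at 1 day against 3868 to 4275 untreated (log2 difference -0.27, adjusted p = 0.24), and 4 of the 5 libraries lay below all untreated ones. Differences within isoform pairs were not tested. Cox4i1 differed by 0.51 (adjusted p = 0.0031) and the lung form Cox4i2 by -0.19 (adjusted p = 0.42). Cox7a2 differed by 0.63 (adjusted p = 0.0025), the heart and muscle form Cox7a1 by 1.44 (adjusted p = 0.080) and Cox7a2l by 0.12 (adjusted p = 0.44). Cox6a1, Cox6b1 and Cox8a differed by 0.15, 0.22 and 0.19 and Cox8b by 0.99, none called, and Cox6c and Cox7c rose by 0.58 and 0.55. Cox7b rose by 0.34 (adjusted p = 0.045), a call that was lost in 18 of 34 alternative settings.

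Cox6a2, the heart and muscle form of its subunit (chr7:128205436-128206366), was the member that fell. It had 403, 177, 294, 150.4 and 221 normalised read counts in untreated libraries and 120.3, 112, 196, 94.4 and 186 at 1 day. The groups overlapped, and the log2 difference was -0.78 ± 0.22 (SE, adjusted p = 0.022), a call lost in 7 of 34 alternative settings. At 3 days the libraries lay between 144 and 167 (log2 difference -0.58, adjusted p = 0.13) and at 14 days between 238 and 309. Of 8 skeletal muscle markers, 5 could be tested, with a median difference of -0.08 at 1 day. Of these 1 was called, Tnnt3 (-0.96, adjusted p = 0.021), where 16.6% of all genes were called. The mean log2 level of the whole muscle list, markers too low to test included, was 3.64 to 4.27 at 1 day and 3.88 to 5.27 untreated. Ckm lay at 0 to 11.9 in untreated libraries. The part of muscle in the Cox6a2 result was not tested.

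In complex V, Atp5l, subunit g of the membrane part (chr9:44913250-44920742), had 760.1, 703, 813, 565 and 707 normalised read counts in untreated libraries and 1469, 1785, 1408, 1505 and 1889.8 at 1 day. The log2 difference was 1.18 ± 0.19 (SE, adjusted p = 0.00074). Atp5e, the epsilon subunit of the central stalk (chr2:174461075-174464101), had 3099, 2734, 3318, 2669 and 2631 untreated and 4818, 6956, 5871, 5058 and 7444 at 1 day, a log2 difference of 1.05 ± 0.21 (SE, adjusted p = 0.0030). Neither gene's groups overlapped. Atp5j2, another membrane subunit, rose by 0.81 (adjusted p = 0.0012). The catalytic subunits were not called, with differences of 0.19 for Atp5a1 (alpha) and 0.33 for Atp5b (beta) (adjusted p = 0.13 and 0.062). The 3 genes that encode the same mature c-ring subunit also differed in size, Atp5g3 with 0.67 (adjusted p = 0.0018), Atp5g1 with 0.20 and Atp5g2 with 0.16 (adjusted p = 0.37 and 0.26), although the difference between them was not tested. Atp5s and Atp5sl, which match the pattern but are not subunits proper, differed by 0.17 and -0.25 and were not called.

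**Figure D2:**
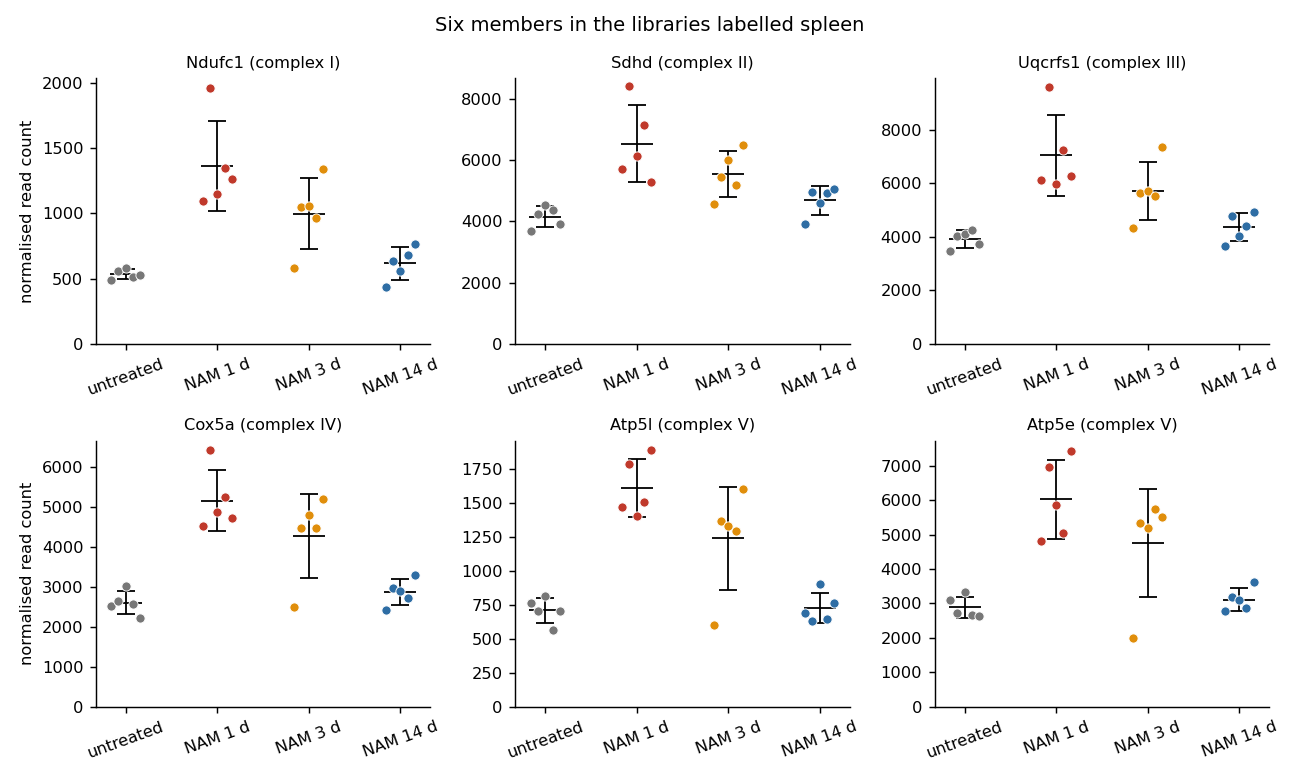
Normalised read counts (y axis, from 0) of Ndufc1, Sdhd, Uqcrfs1, Cox5a, Atp5l and Atp5e in the 20 libraries labelled spleen, by group (x axis), with points as libraries and bars as mean ± SD of 5. At 1 day all points lie above the untreated ones, at 3 days replicate 1 is the lowest of that group in each panel (1986 for Atp5e), and at 14 days all 6 genes overlap with untreated.

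At 3 days under the spleen label, 10 members were higher and 0 lower, where 2.82% of all genes were called higher and 2.74% lower, 5.55% in all. The median member differed by 0.19. The 10 were Ndufc1 (0.86, adjusted p = 0.014), Ndufs5 (0.54), Ndufs4 (0.50), Ndufa4 (0.52) and Ndufb6 (0.52) among those named for complex I, Sdhd (0.41), Uqcrfs1 (0.53), Cox5a (0.68) and Cox6c (0.41), and Atp5l (0.74, adjusted p = 0.029). All 10 were among the 44 called at 1 day, and both comparisons use the same untreated libraries. Averaged over all members, replicate 1 at 3 days had a log2 level of 0.07 relative to untreated, against 0.12 to 0.42 in the other 4. In complexes II, III and IV the lowest was replicate 4 (0.11, 0.11 and -0.05). Replicate 1 stood below the other 4 in the genes that follow. It had 2485 for Cox5a against 4473 to 5204 and 599 for Atp5l against 1297 to 1601, both within the untreated range, and 1986 for Atp5e against 5183 to 5745, below every untreated library. The count at 3 days turned on single libraries: it was 25 without that replicate, when calls over all genes went from 1013 to 2782, 0 without replicate 3 or replicate 5 at 3 days (158 and 196 over all genes), 1 and 3 without replicates 2 and 4 at 3 days (288 and 366), 23 without replicate 2 at 1 day (1393), and 2 to 5 without untreated replicate 1, 2, 4 or 5 (420 to 547). These 5 libraries held 43632016 to 54830743 reads and the untreated ones 18325061 to 31486631, and the part of depth in the count was not tested.

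At 14 days, 0 members and 0% of all genes were called by limma, and edgeR and DESeq2 on the recovered reads called 0 members each. The unadjusted p was under 0.05 for 0 members and for 510 genes. The median member differed by 0.12, and 76 of 82 differences were positive, where the median of all genes was 0.00 and 51.2% of their differences were positive. The members' median was 0.06 without replicate 5 at 14 days and 0.06 with Adipoq as a covariate. Adipocyte, brown adipocyte and erythroid markers had medians of 0.46, 0.92 and 0.56 at 14 days, none called, and their part in the members' values was not tested. Ndufa4l2 had the smallest p, with 46.7, 40.8, 39.4, 77.8 and 42.2 normalised read counts against 25.2 to 35.1 untreated, a log2 difference of 0.57 (adjusted p = 1). It was the 1 member without overlap at 14 days, where 0.548% of all genes did not overlap.

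Compared directly with 1 day, 26 members were lower at 14 days and 1 was higher, where 5.41% of all genes were called lower and 5.22% higher, 10.6% in all. All 27 were among the 44 called at 1 day, and the 2 comparisons share the libraries at 1 day. The largest falls were those of Atp5l (by 1.15 on the log2 scale, adjusted p = 0.0019) and Ndufc1 (by 1.14, adjusted p = 0.0019), and Cox6a2 was the member that rose (1.01, adjusted p = 0.0082). Over the 4 groups in 1 test, 36 of 82 members were called, against 12.4% of all genes.

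A single library stood above the rest at 1 day. Averaged over all tested members and set to 0 at the untreated mean, the log2 level was -0.09 to 0.12 in untreated libraries and 0.15, 0.82, 0.29, 0.33 and 0.34 at 1 day, and the 0.82 of replicate 2 coincided with the highest Adipoq of the series, 43022. Without this library, 39 members were called at 1 day, 38 of them among the 44, while calls over all genes went from 3030 to 2516, and the median was 0.25. Members have short transcripts, with a median of 1003 bases for the longest transcript of each gene; other genes of 600 to 1500 bases (n = 1692) had a median difference of 0.09 at 1 day, with 18.3% called.

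A smaller share of all reads fell on the mitochondrial genome at 1 day, its ribosomal RNA genes included. The share of reads on the mitochondrial genome was 9.23, 9.20, 9.07, 9.85 and 8.92% in untreated libraries labelled spleen and 7.31, 8.05, 6.61, 8.21 and 4.85% at 1 day. The groups did not overlap, with means of 9.25% ± 0.355 and 7.01% ± 1.36 (SD, n = 5 each), a difference of -2.25 percentage points (exact permutation test, two-sided, p = 0.0079, adjusted over 6 comparisons p = 0.048). Among the mitochondrial rows, the one that covers mt-Nd2, a core subunit of complex I (chrM:3845-5171), had a log2 difference of -0.96 ± 0.25 (SE, adjusted p = 0.012). The row that covers mt-Nd1 together with a ribosomal RNA gene had -0.69 (adjusted p = 0.025), a call that was lost in 4 of 34 alternative settings, with adjusted p up to 0.079. Rows over mt-Nd4l with mt-Nd4 (-0.69), mt-Nd5 with mt-Nd6 and mt-Cytb (-0.53), mt-Nd3 (-0.47) and mt-Co1 (-0.18) were not called, with adjusted p of 0.078, 0.15, 0.076 and 0.64. A further row over mt-Nd3 (-1.30, adjusted p = 0.013) and one over mt-Nd5 with mt-Nd6 (-1.48, adjusted p = 0.0024) overlap these, hold far fewer reads and were called lower. mt-Co2, mt-Co3, mt-Atp6 and mt-Atp8 had no row of their own.

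At 3 days the shares were 14.0% in replicate 1 and 5.95 to 8.29% in the other 4 (exact p = 0.63), and at 14 days they were 8.44 to 11.9% (exact permutation p = 0.15). Replicate 1 at 3 days, with the highest share under the label, was also the library in which Atp5e, Cox5a and Atp5l lay low. Between 14 days and 1 day, the row of mt-Nd2 was higher by 1.19 (adjusted p = 0.0059). Under the lymph node label the shares ran from 4.89 to 5.69% in all 13 libraries, with exact permutation p of 0.60, 1 and 0.26 in order of time. The smallest p that 2 against 3 libraries allow is 0.1, so the 1 day comparison there could not reach 0.05.

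**Figure D3:**
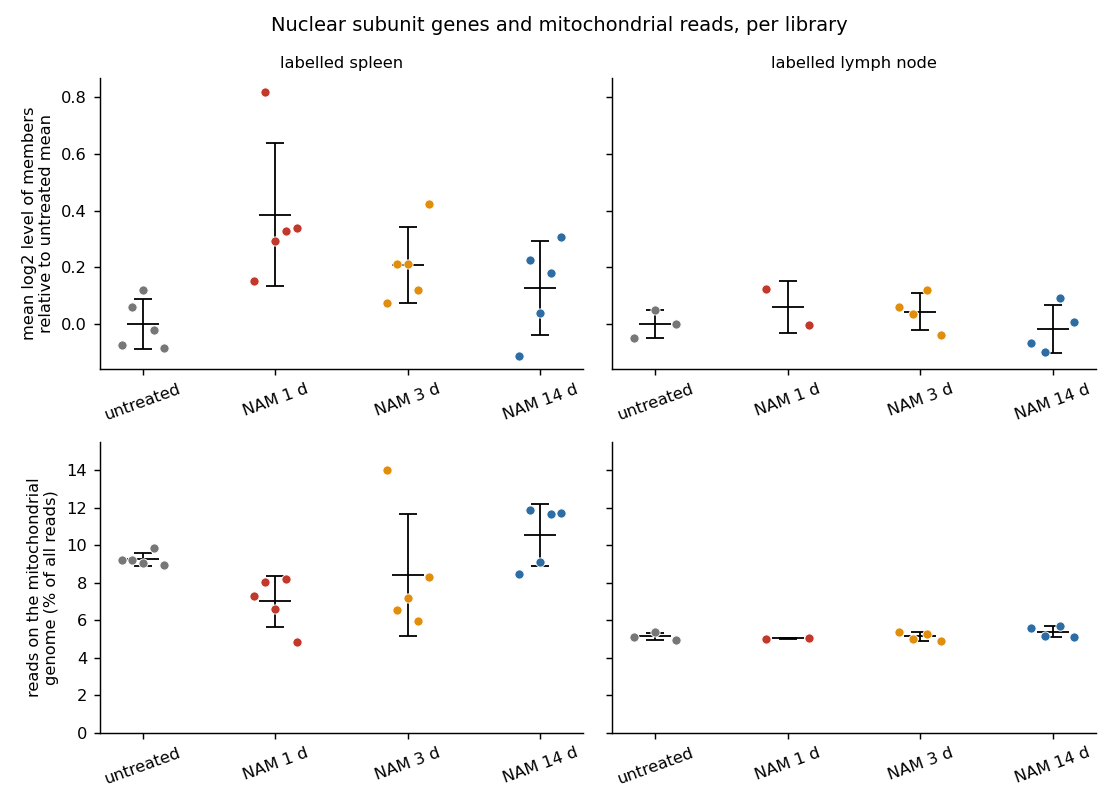
Mean log2 level of the tested members relative to the untreated mean (top) and percent of reads on the mitochondrial genome (bottom, from 0) by group, for the labelled spleen (left) and labelled lymph node (right). Points are libraries and bars mean ± SD; at 1 day under the spleen label the members lie at 0.15 to 0.82 while the mitochondrial share lies at 4.85 to 8.21%, under all 5 untreated libraries.

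Fat content varied between libraries of one group, and the members followed it to different degrees. Within the 4 groups under the spleen label, the slope on log2 Adipoq was called for 38 of 82 members, 36 positive and 2 negative, where 31.7% of all genes had a called slope, 3106 genes positive and 2671 negative. By complex, called slopes numbered 13 of 37, 4 of 4, 7 of 8, 10 of 16 and 4 of 17 in complexes I to V. The shares in complexes I and V, 35.1% and 23.5%, were near or below that of all genes. The count was 22 without replicate 2 at 1 day, when calls over all genes went from 5777 to 4484, a share similar to that of the members. The same slope was called positive for all 9 adipocyte markers other than Adipoq itself, for 6 of 6 brown adipocyte markers and for 4 of 4 erythroid markers, and negative for 5 of 5 T cell and 4 of 5 B cell markers.

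The steepest slopes belonged to the brown fat and muscle isoforms. Cox8b had 1.13 ± 0.11 log2 units per doubling of Adipoq (SE, adjusted p = 7.8e-08), and its counts went from 58.9 in the untreated library with the lowest Adipoq to 1382 in replicate 2 at 1 day, the library with the highest. Cox7a1 had 0.83 (adjusted p = 0.00021). Their differences at 1 day, 0.99 ± 0.64 and 1.44 ± 0.55 (SE, adjusted p = 0.31 and 0.080), were the largest in the complex and were not called, and at equal Adipoq they were -0.06 and 0.67. Uqcrq and Ndufb9 had slopes of 0.26 each and Cox6a1 of 0.22. Cox6a2 and Cox7a2l had negative slopes of -0.28 and -0.14.

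For Ndufc1, Atp5l, Atp5e and Cox5a, the 4 called members with the largest rises at 1 day, no slope was called, while Uqcrfs1 (0.15, adjusted p = 0.015) and Sdhd (0.13, adjusted p = 0.013) had called slopes. The slope was -0.08 for Atp5l, -0.07 for Atp5e and 0.04 for Cox5a and 0.16 for Ndufc1 (adjusted p = 0.083). At equal Adipoq, Atp5l differed by 1.26 (adjusted p = 0.00050) and Atp5e by 1.11 (adjusted p = 0.0018) at 1 day. With Adipoq as a covariate, 42 members were called at 1 day, 40 of them shared with the 44, while calls over all genes went from 3030 to 3737, and the median difference fell from 0.36 to 0.27. Cox5b (-0.42, limma adjusted p = 0.034) and Cox7a2l (0.25, adjusted p = 0.027) were called with this covariate and not without it. With the mean level of 6 erythroid markers as a covariate, chosen after seeing the data, 37 were called, all among the 44, with 2431 over all genes, and Cox6a2 was no longer called. Adipocyte markers had a median difference of 0.90 at 1 day, with 1 of 10 called (Retn), brown adipocyte markers 1.01 with 0 of 6 and erythroid markers 0.90 with 0 of 4. Of 7 pancreas acinar markers 2 could be tested, with a median of 0.85 and none called, and the mean log2 level of that list was 3.73 and 4.47 in replicates 1 and 2 at 1 day, 1.35 to 1.70 in the other 3 libraries and 1.07 to 2.99 untreated. The part of brown adipocytes and pancreas in the members' rise was not tested.

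**Figure D4:**
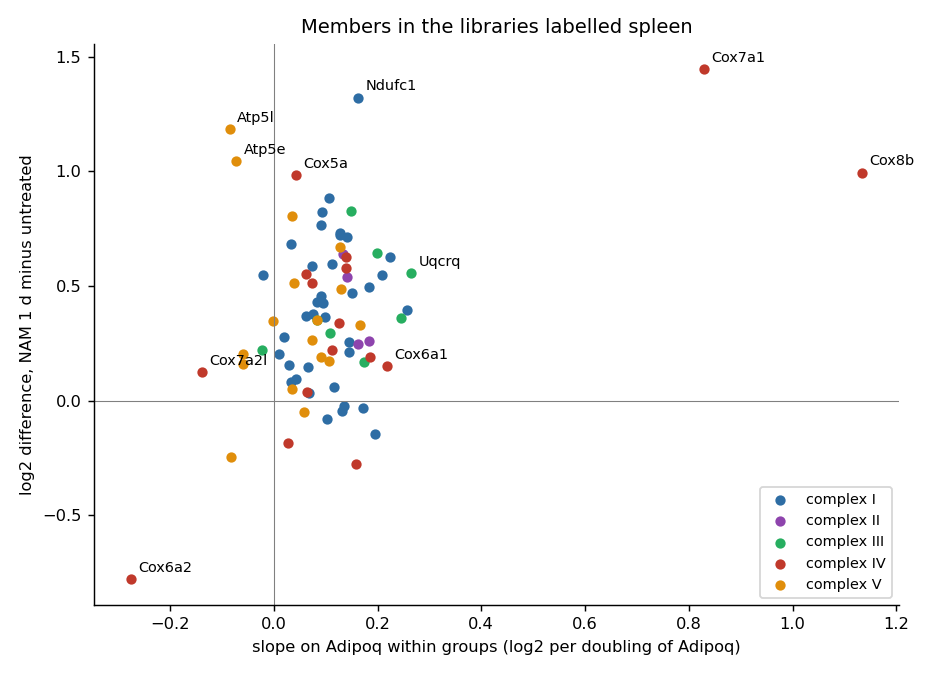
Slope on Adipoq within groups (x axis, log2 units per doubling of Adipoq) against the difference between 1 day and untreated (y axis, log2) for the 82 members under the spleen label, coloured by complex. Cox8b and Cox7a1 lie far right at 1.13 and 0.83, while Atp5l, Atp5e and Cox5a lie near a slope of 0 with differences of 0.98 to 1.18.

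Genes of the same pathway outside the naming pattern were followed in 4 lists under the spleen label at 1 day, where 16.6% of all genes were called, 8.56% higher and 8.05% lower. Of 8 electron carriers and partners, 3 were higher, namely Etfb (0.81) and Etfa (0.71), the 2 subunits of the electron transfer flavoprotein, and Ndufab1 (0.65), the acyl carrier protein of complex I. Of 38 assembly factors, 17 were higher and 1 lower, led by the copper chaperone Cox19 (0.98) and by Sdhaf4 (0.86), which helps to build complex II. At 3 days, where 5.55% of all genes were called, 9 assembly factors were higher and 1 lower, with Cox19 at 0.74 and Nubpl, an iron-sulphur factor of complex I, at 0.60. Of 13 tricarboxylic acid cycle genes, 2 were higher, Fh1 (0.52) and Suclg1 (0.35), a share near that of all genes. Of 12 regulators of mitochondrial biogenesis, Tfam (0.36), the packaging factor of the mitochondrial genome, and Esrra (0.27) were higher and Yy1 (-0.33) was lower. The Adipoq slope was called in 12 of 13 tricarboxylic acid cycle genes and in 6 of 38 assembly factors, against 31.7% of all genes.

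Under the lymph node label few members were called. At 1 day 0 of 81 members were called, where 1.21% of 18215 genes were, 0.884% higher and 0.329% lower, and 11 members had an unadjusted p under 0.05, as did 2726 of all genes, a similar share. DESeq2 called 2 members and 540 genes in this comparison, and edgeR 0 members and 222 genes. Uqcrh had the smallest p, with 12311, 12813 and 12553 normalised read counts untreated and 15959 and 14654 at 1 day (log2 difference 0.28, adjusted p = 0.080). The median member differed by 0.08, and by 0.01 without replicate 1 and 0.14 without replicate 2 at 1 day. In 29 members both libraries at 1 day lay above all untreated ones and in 5 below, where 32.6% of all genes did not overlap, 3114 genes above and 2820 below. Replicate 1 at 1 day stood apart in pancreatic markers, with a mean log2 level of 12.02 against 2.00 to 2.48 in the other 12 libraries, and its part in these values was not tested.

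The leading members of the spleen label were not called here. Ndufc1 had 1464, 1545 and 1649 untreated and 1455 and 1237 at 1 day (log2 difference -0.21, adjusted p = 0.34). Cox5a had 6048 to 6369 untreated and 6023 and 6463 at 1 day. Atp5e had 6896 to 8193 untreated and 6756 and 8398 at 1 day. For Ndufc1 and Ndufs5 the treated libraries moved up under the spleen label and down under the lymph node label, where neither was called. The difference between the labels was not tested for them.

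At 3 days 1 of 81 members was called, where 0.335% of all genes were higher and 0.906% lower, 1.24% in all, and at 14 days 1 of 81, where 0.110% were higher and 0.681% lower, 0.791% in all. Both were Cox6b2, the testis form of a complex IV subunit (chr7:4751794-4753094). Untreated libraries had 183, 308 and 204 normalised read counts, and those at 1 day 119 and 139.9. Libraries at 3 days had 92.8, 76.9, 117 and 105, and those at 14 days 115, 132, 117 and 111. No treated library reached the lowest untreated one. Log2 differences were -0.80 (adjusted p = 0.086) at 1 day, -1.21 ± 0.18 (SE, adjusted p = 0.0019) at 3 days and -0.93 (adjusted p = 0.023) at 14 days. It was also the 1 member called over the 4 groups, where 1.76% of all genes were. The call at 14 days was lost without untreated replicate 2, without replicate 1 at 1 day and without replicate 1 or 4 at 14 days, and that over the 4 groups without untreated replicate 2.

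Cox6b1, the common form of the subunit, had 8121 to 8688 in untreated libraries and 8279 to 10198 in all NAM libraries, with log2 differences of 0.19, 0.11 and 0.07, none called. Red cell markers were also lower at 3 days. The mean log2 level of 6 erythroid markers was 15.2 to 15.9 in untreated libraries and 14.8 and 15.3 at 1 day. It was 11.6 to 14.4 in the 3 day libraries and 13.8 to 14.7 in the 14 day ones, and 4 of the 6 were lower at 3 days, among them Slc4a1 (-4.38), Hbb-bt (-1.79) and Alas2 (-1.73), while 0 of 6 were called at 1 day and 0 of 6 at 14 days (median differences of -0.54 and -1.22). With that level as a covariate the log2 difference of Cox6b2 was -1.13 ± 0.31 at 3 days and -0.87 ± 0.24 at 14 days (SE). Without it the differences were -1.21 and -0.93. With the covariate Cox6b2 was not called (limma adjusted p = 0.49 and 0.31). The erythroid level itself differed between the groups, so the part of red cells in the Cox6b2 result cannot be told apart from that of NAM. Under the spleen label, where the same marker level was 5.11 to 8.04, Cox6b2 had 23.1 to 92.9 in all 20 libraries and no called difference.

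**Figure D5:**
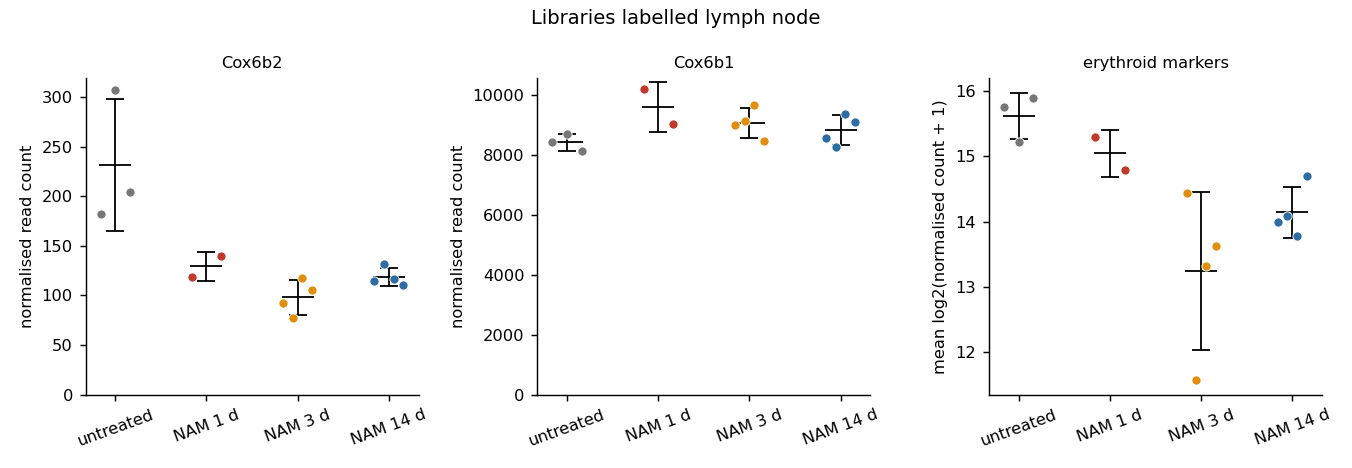
Cox6b2 (left) and Cox6b1 (middle) in normalised read counts and the mean log2 level of 6 erythroid markers (right) in the 13 libraries labelled lymph node, by group, with points as libraries and bars as mean ± SD. Cox6b2 goes from 183 to 308 untreated to 76.9 to 117 at 3 days, Cox6b1 stays between 8121 and 10198, and the erythroid level is lowest at 3 days (11.6 to 14.4).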

How the data were processed

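RNA was sequenced as 33 polyA libraries, and groups and replicate numbers came from the sample titles. The authors deposited normalised read counts per gene, a signal in which each library's counts are divided by a DESeq2 size factor. The processing notes name STAR 2.4.0, DESeq2, FastQC, Picard and SAMtools and the mm10 build. Strand use in the counting is not given in the sources used here, so overlapping genes and near-identical copies may share reads.

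Members, gene lists and tests were chosen with earlier results of these data known. The 0 unmapped columns left every library in use. Values in all libraries were whole multiples of 1 step within 0.1 read. The 2 tissue labels may have been scaled separately (the median gene was 0.15 log2 units higher under the lymph node label), so tests stayed within a label. Values were tested as log2(normalised count + 1), a scale that understates changes of low genes, by the trended fit of limma 3.58.1 (R 4.3.3). All 4 groups of a label entered 1 fit, rows with a mean under 10 were dropped, and p-values were adjusted (Benjamini-Hochberg) over 18243 or 18215 rows with a threshold of 0.05. The comparisons of a label share the untreated libraries. The slope on log2(Adipoq + 1) within groups and the share of reads on the mitochondrial genome (exact permutation test) were added after seeing the data. Mitochondrial rows were named by an overlap of at least 95% with an annotated gene.

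Named members were the isoform pairs, the Sdh genes, the 2 most abundant of each complex, and per comparison and complex up to 2 called members with the largest change in each direction, or the smallest p where none was called. Others were named after their values were seen, and some genes are not reported here by name. From each pathway list the 2 largest called changes per comparison were named, and further list genes were also chosen afterwards. Alternatives covered pseudocounts of 0.1 and 5, the filter, scaling (TMM, total reads, quantile), library weights, the replicate block, Adipoq and erythroid covariates, each replicate left out, a rule of raw p up to 0.05 and 1.5-fold, and edgeR 4.0.16 and DESeq2 1.42.0 on recovered reads. The fits were tested on simulated data. Figures were drawn with matplotlib 3.10.9 in Python 3.11.15.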

Additional observations from a re-analysis of the deposited data

Results flagged for a closer look

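In 120 sets of values, 9 held a library far from the others of its group, where chance alone gives about 1 in 20. Replicate 2 at 1 day under the spleen label was high in the mean log2 level of all members relative to untreated (0.82 against 0.15 to 0.34), of complex III (0.93 against 0.21 to 0.42) and of complex IV (0.85 against 0.06 to 0.29), and in Cox8b (1382 normalised read counts against 267 to 590.2). Replicate 1 at 3 days under that label was low in Atp5e (1986 against 5183 to 5745) and Cox5a (2485 against 4473 to 5204). Replicate 4 at 14 days was high in Ndufa4l2 (77.8 against 39.4 to 46.7). Under the lymph node label, replicate 1 at 14 days was high in Adipoq (71.3 against 17.3 to 25.2) and replicate 3 at 3 days was low in Cox6a2 (262 against 320.2 to 327).

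Under the same contrast with untreated, some members had all NAM libraries of the spleen label on one side of the untreated mean and all those of the lymph node label on the other side. These were Ndufc1 at 1 day (log2 difference 1.32 under the spleen label) and 3 days (0.86), Ndufs5 at 1 day (0.82) and Cox6a2 at 1 day (-0.78). None of these was called under the lymph node label, where the 1 day group held 2 libraries. The number of all genes that meet the same rule is not given here. The difference between the labels was not tested.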

How the results depend on the processing

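Of the recomputed counts of called members, 265 stayed within 1.5 times the reported count and 36 did not. Of the recomputed medians, 171 stayed within the spread between replicates and 6 did not, namely 0.27 with Adipoq as a covariate and 0.25 without replicate 2 at 1 day under the spleen label, and at 1 day under the lymph node label 0.01 by total read scaling, 0.02 by quantile normalisation, and 0.01 and 0.14 without replicates 1 and 2. Of the recomputed values of single genes, 2019 kept their side of the threshold, 183 lost their call and 0 changed direction. The cause of the changes below was not tested. With an unadjusted p of at most 0.05 and a 1.5-fold change, counts were 22 at 1 day, 4 at 3 days and 12 for 14 days against 1 day under the spleen label, and 1 (1 day) and 2 (3 days) in the labelled lymph node, where the same rule took 1497, 620 and 943 of all genes and 894 and 615 in the labelled lymph node. The 3 day count under the spleen label was 6 without a filter, 3 with 2 groups alone, 44 with library weights, 19 with Adipoq and 22 with the erythroid level as a covariate, 16 by edgeR and 23 by DESeq2. Calls over all genes moved too, from 1013 to 572 without a filter, 140 with 2 groups alone, 4722 with library weights, 2126 and 1406 with the covariates, 1084 by edgeR and 1686 by DESeq2. Under the lymph node label, DESeq2 gave 2 at 1 day and 2 at 3 days (540 and 493 over all genes), library weights gave 3 at 3 days (557), 2 groups alone gave 0 at 14 days (55), and the erythroid covariate gave 0 at 3 days, at 14 days and over the 4 groups (0, 3 and 80).

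With each replicate left out, counts under the spleen label ran from 39 to 48 at 1 day, 0 to 25 at 3 days, 0 to 0 at 14 days, 19 to 31 for 14 days against 1 day, 25 to 39 over the 4 groups and 22 to 48 for the Adipoq slope, lowest without replicate 2 at 1 day. Calls over all genes moved too. For 14 days against 1 day, 31 members went with 2616 genes without replicate 1 at 3 days, and 23 with 1656 without replicate 2 at 1 day, against 27 and 1940 with all libraries. At 1 day, 39 members went with 2516 genes without replicate 2. The calls over all genes behind the other ends of these ranges are not all given here. The difference in the mitochondrial share of reads at 1 day under the spleen label ran from -2.55 to -1.71 percentage points. Under the lymph node label counts ran from 0 to 0, 1 to 1 and 0 to 1 at 1, 3 and 14 days, and 0 to 1 over the 4 groups.

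The replicate numbers are shared between groups, but libraries with the same number did not deviate together (r of -0.50 to 0.47 in 30 pairs under the spleen label and -0.11 to 0.08 in 16 pairs under the lymph node label). With the replicate number as a block, 45, 17 and 0 members were called at 1, 3 and 14 days under the spleen label, 33 for 14 days against 1 day, and 0, 1 and 1 under the lymph node label, so the 3 day count was the one moved by over 1.5 times. Calls over all genes with the block were 3039, 1000 and 0 under the spleen label, 1966 for 14 days against 1 day, and 132, 167 and 121 under the lymph node label. Depth limits members with few reads such as Ndufa4l2 and Cox6b2 most.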

Other observations

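On the mitochondrial genome, 5 rows without a symbol lie inside or across another row that holds more reads, and the table gives no strand for them. They were examined after their values were seen. The row at chrM:3401-3555 had 402, 385, 1044, 394 and 316 normalised read counts in untreated libraries labelled spleen and 33.7, 73.3, 70.1, 41.7 and 55.9 at 1 day. Its log2 difference was -3.10 ± 0.40 (SE, limma adjusted p = 0.00024), and at 14 days it had 194 to 842. The rows at chrM:332-623, chrM:9203-9888 (over mt-Nd3) and chrM:11720-14070 (over mt-Nd5 and mt-Nd6) differed by -3.71, -1.30 and -1.48 at 1 day, with limma adjusted p of 0.0011, 0.013 and 0.0024. In these 4 rows every library at 1 day lay below every untreated one. The row at chrM:15763-16189 differed by -0.12 (adjusted p = 0.80), and its groups overlapped. In the labelled lymph node, the rows at chrM:332-623 and chrM:3401-3555 were lower at 1 day (-3.28 and -1.68, limma adjusted p = 0.036 and 0.0499), while the row of mt-Nd2 there differed by -0.11 (adjusted p = 0.66). What these rows measure was not tested.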
